A study of Mus musculus with 48 samples.

Results

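Usp17lb, Usp17le, Gm8300, Zfp352, Tdpoz3, B020004J07Rik and Ddit4l are 7 mouse genes listed as transcripts of the 2-cell (2C) embryo outside the Zscan4 cluster. They were taken as the rows of the RNA-seq and Ribo-seq tables whose Ensembl identifiers carry these 7 symbols in the GENCODE mouse annotation. All 7 symbols were found, each with 1 identifier, among 55335 genes in each table, and all 7 are annotated as protein coding. The 7 were chosen with earlier results of these data known, so counts of calls among them are a description.

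The cells were mouse embryonic stem cells (mESCs) of a hybrid 129-C57BL/6 background, grown with serum, LIF and 2i, and every line carries a Cre recombinase that 4-hydroxytamoxifen switches on. RNA-seq was available for 14 groups of 2 libraries and Ribo-seq, the sequencing of ribosome-protected fragments, for 2 groups of 2. The Nrde2-KO, Nrde2d200 and Nrde2-D174R groups shared 1 WT group, which was the conditional Nrde2 knockout line without 4-hydroxytamoxifen. Nrde2-KO cells had received 100 nM 4-hydroxytamoxifen for 4 days, Nrde2d200 cells lack the 200 N-terminal amino acids of NRDE2, and Nrde2-D174R cells carry that substitution. Mtrex-KO cells had received 100 nM 4-hydroxytamoxifen for 3 days, and Mtrex-WT was their conditional line without it. In the Ccdc174-dTAG group, 500 nM dTAG-13 for 24 hours degraded a CCDC174-FKBP12F36V fusion, and its WT carried the same fusion. That pair, and a further WT and Nrde2-KO pair called the second experiment here, were each sequenced without and with 0.1 mg/ml cycloheximide (CHX), an inhibitor of translation elongation, for 4 hours. Ribo-seq was from WT and from Nrde2-KO. The labels call the replicates independent and do not say whether they were separate cultures, so p-values measure the spread between these libraries, which may be technical. The knockout groups had received 4-hydroxytamoxifen and their controls had not, so deletion and agent cannot be told apart. Per the methods, edited lines were grown from picked clones, so in Nrde2d200 and Nrde2-D174R mutation and clone cannot be told apart. Nrde2d200 and Nrde2-KO also differ in 4-hydroxytamoxifen. With 2 libraries a group, an exact permutation test over libraries cannot go below a two-sided p of 0.333, and tests were made in a fit across all genes.

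Each RNA-seq library held 28683644 to 36272309 reads in genes and each Ribo-seq library 3475051 to 5035940. The Nrde2 row was lower in libraries labelled Nrde2-KO, by 1.04 on the log2 scale in the first experiment and by 1.40 in the second, and Mtrex fell by 1.39 in Mtrex-KO. Under CHX the Nrde2 row was not lower in the libraries labelled Nrde2-KO, so it does not check those labels. It was at 257.3 and 248.8 normalized CPM there and at 242.4 and 224.2 in WT. Ccdc174 RNA cannot check a depletion of the protein. Normalized CPM are read counts scaled to library size (CPM) and then divided by a factor between libraries. Over the 28 RNA-seq libraries, 7 pluripotency markers summed to 2526 to 5557 normalized CPM and 6 fibroblast feeder markers to at most 5.32.

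After fertilization, the mouse embryo starts its own transcription at the 2-cell stage with a burst of genes that are soon silenced, many of them in young multicopy families. A small part of mESCs in culture passes through a state that expresses many of these genes, known as 2C-like cells. In bulk RNA-seq a change in the number of such cells and a change in RNA per cell cannot be told apart. Usp17lb and Usp17le encode deubiquitinases of the Usp17-like (DUB) family. Zfp352 encodes a zinc finger protein of the 2-cell embryo, Tdpoz3 a protein with a TRAF domain and a POZ domain, and B020004J07Rik a PRAME-like protein. Gm8300 is a predicted gene of a multicopy family. Ddit4l, also called REDD2, encodes an inhibitor of the mTORC1 growth pathway.

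Because the counts hold uniquely mapping reads only, a multicopy gene is visible only where its sequence differs from its copies. For each gene, all 50-base windows within exons were searched on both strands of the GRCm38 genome. This is the C57BL/6J reference, and sequence of the 129 part of these hybrid cells was not searched. Nearly every window of Ddit4l occurred once, at 99.5%, followed by Zfp352 at 91.0%, B020004J07Rik at 87.0%, Usp17lb at 77.5%, Usp17le at 65.0% and Gm8300 at 59.2%. Tdpoz3 was the least visible of the 7, with 33.8% of its 1049 windows found once. Its pseudogene Gm4982 held 66.2% of the Tdpoz3 windows, so the reads assigned to Tdpoz3 came from about 355 window positions. The Zscan4 genes ranged from 2.92% in Zscan4f to 48.8% in Zscan4d. No window of Tdpoz5 was found once, and Tdpoz5 was listed at 0 in all 28 libraries.

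**Figure D1:**
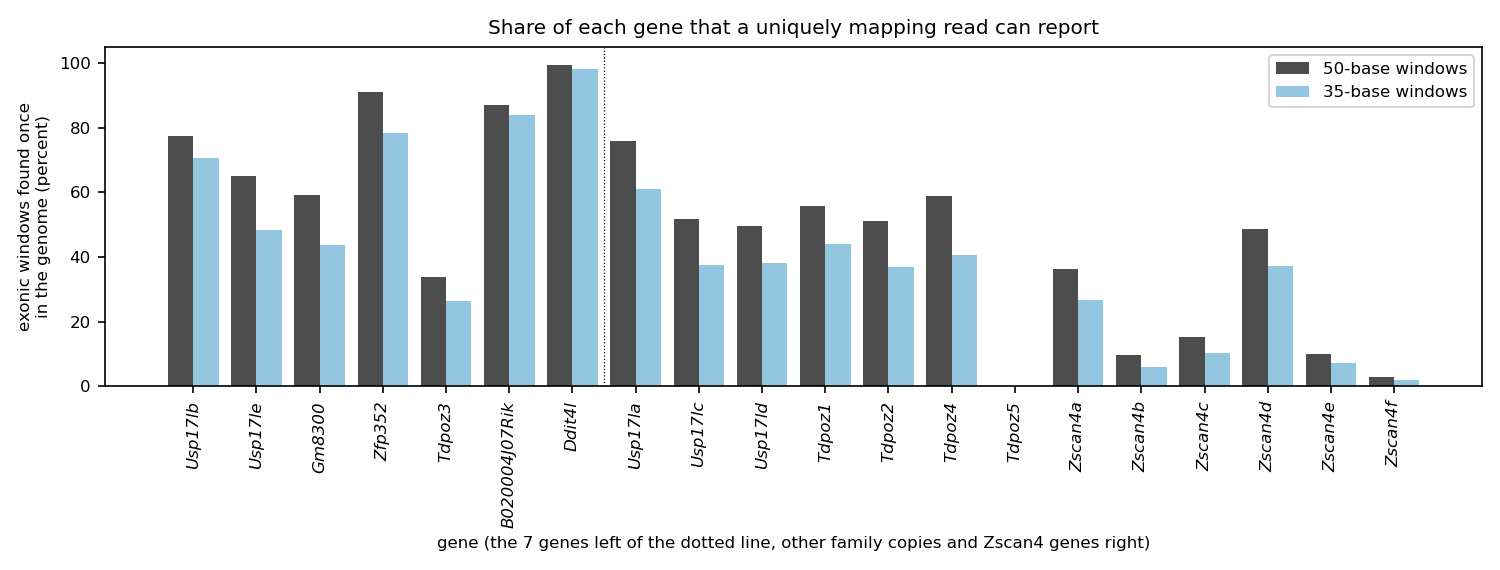
Percent of 50-base and 35-base exonic windows found exactly once in the genome, with 1 pair of bars per gene, for the 7 genes and for other copies of their families and the Zscan4 genes. Among the 7, Ddit4l stands at 99.5% and Tdpoz3 at 33.8% of 50-base windows.

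Usp17lb (chr7:104840257-104842603, minus strand) and Usp17le (chr7:104768049-104777470, minus strand) lie on the same chromosome as Usp17la, Usp17lc and Usp17ld, and each of the 2 shared windows with 6 other genes or pseudogenes. The overlap of Usp17lb was largest with Usp17la, at 12.1% of its windows, and that of Usp17le also with Usp17la, at 15.5%. A coding stretch of Usp17lb within a run of windows found once (GRCm38 chr7:104841030-104841079) shows how few bases set the copies apart. It is printed 5′ to 3′ on the coding strand with the same stretch of each copy, and capitals mark the bases that differ from Usp17lb.
Usp17lb: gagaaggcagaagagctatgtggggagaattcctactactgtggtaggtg
Usp17la: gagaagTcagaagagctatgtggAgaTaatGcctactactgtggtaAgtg
Usp17le: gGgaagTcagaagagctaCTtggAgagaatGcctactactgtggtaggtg
Usp17lc: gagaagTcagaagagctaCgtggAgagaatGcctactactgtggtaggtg
Usp17ld: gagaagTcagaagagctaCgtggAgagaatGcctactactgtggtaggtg
Usp17la differed from Usp17lb at 5 of these 50 bases, Usp17le at 6 and Usp17lc and Usp17ld at 4 each. On this reference a read over this stretch can be assigned to Usp17lb, but Usp17lc and Usp17ld are identical here. Usp17lc shared 41.1% of its windows with Usp17ld.

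Tdpoz3 (chr3:93826020-93827117, plus strand) and Gm8300 (chr12:87514316-87518266, plus strand) depend on still fewer differences. A coding stretch of Tdpoz3 (chr3:93826372-93826421) differs from the pseudogene Gm4982 at 2 bases and from Tdpoz1 at 9, and one of Gm8300 (chr12:87516979-87517028) differs from Gm8332 at 1 base. Both are shown because they mark where unique reads could come from, with capitals at the bases that differ from the first line of each set.
Tdpoz3: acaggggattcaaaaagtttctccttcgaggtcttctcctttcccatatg
Gm4982: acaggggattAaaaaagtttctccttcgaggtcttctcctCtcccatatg
Tdpoz1: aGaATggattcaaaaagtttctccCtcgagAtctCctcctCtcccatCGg
Gm8300: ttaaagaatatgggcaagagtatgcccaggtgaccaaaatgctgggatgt
Gm8332: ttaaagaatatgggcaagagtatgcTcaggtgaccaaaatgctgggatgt
A read with a sequencing error at such a base could be placed on the other copy, and how often this happened was not tested. Gm8300 shared windows with 20 other genes, among them Gm8332, Gm5662 and Gm2016 with 16.1%, 13.6% and 12.9% of its windows.

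Levels of these genes in WT mESCs were low except for Ddit4l. To compare genes, the mean level of a group, in CPM normalized between libraries, was given per 1000 windows found once. On that scale the first WT group was at 2.32 for Ddit4l, 0.692 for Gm8300, 0.291 for Usp17lb, 0.245 for Usp17le, 0.121 for Tdpoz3, 0.0728 for Zfp352 and 0.0362 for B020004J07Rik. In Mtrex-KO the same scale gave 41.1 for Ddit4l, 26.7 for Gm8300, 22.8 for Usp17le, 19.5 for Usp17lb, 15.2 for Tdpoz3, 3.49 for Zfp352 and 1.21 for B020004J07Rik.

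Mtrex-KO or the second Nrde2-KO group without CHX held the highest mean of every one of the 7 genes among the 14 RNA-seq groups. For Usp17lb, Usp17le, Gm8300 and Zfp352 the libraries of these 2 groups overlapped. For Tdpoz3 and Ddit4l both Mtrex-KO libraries were above all others, and for B020004J07Rik both second Nrde2-KO libraries were. The libraries labelled Nrde2-KO with CHX came next for every gene and after them the first Nrde2-KO group, and these 2 groups overlapped in Zfp352 and Ddit4l and were apart in the others. Nrde2d200 followed for Usp17lb, Usp17le, Gm8300 and B020004J07Rik, and its libraries were apart from the group with the next lower mean for the first 3 of these. They were not clear of every WT library. Mtrex-WT replicate 1, at 1.47 for Usp17lb and 1.20 for Usp17le, was above both Nrde2d200 libraries. For Gm8300 it was at 4.84, against 4.87 in the lower Nrde2d200 library.

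**Figure D2:**
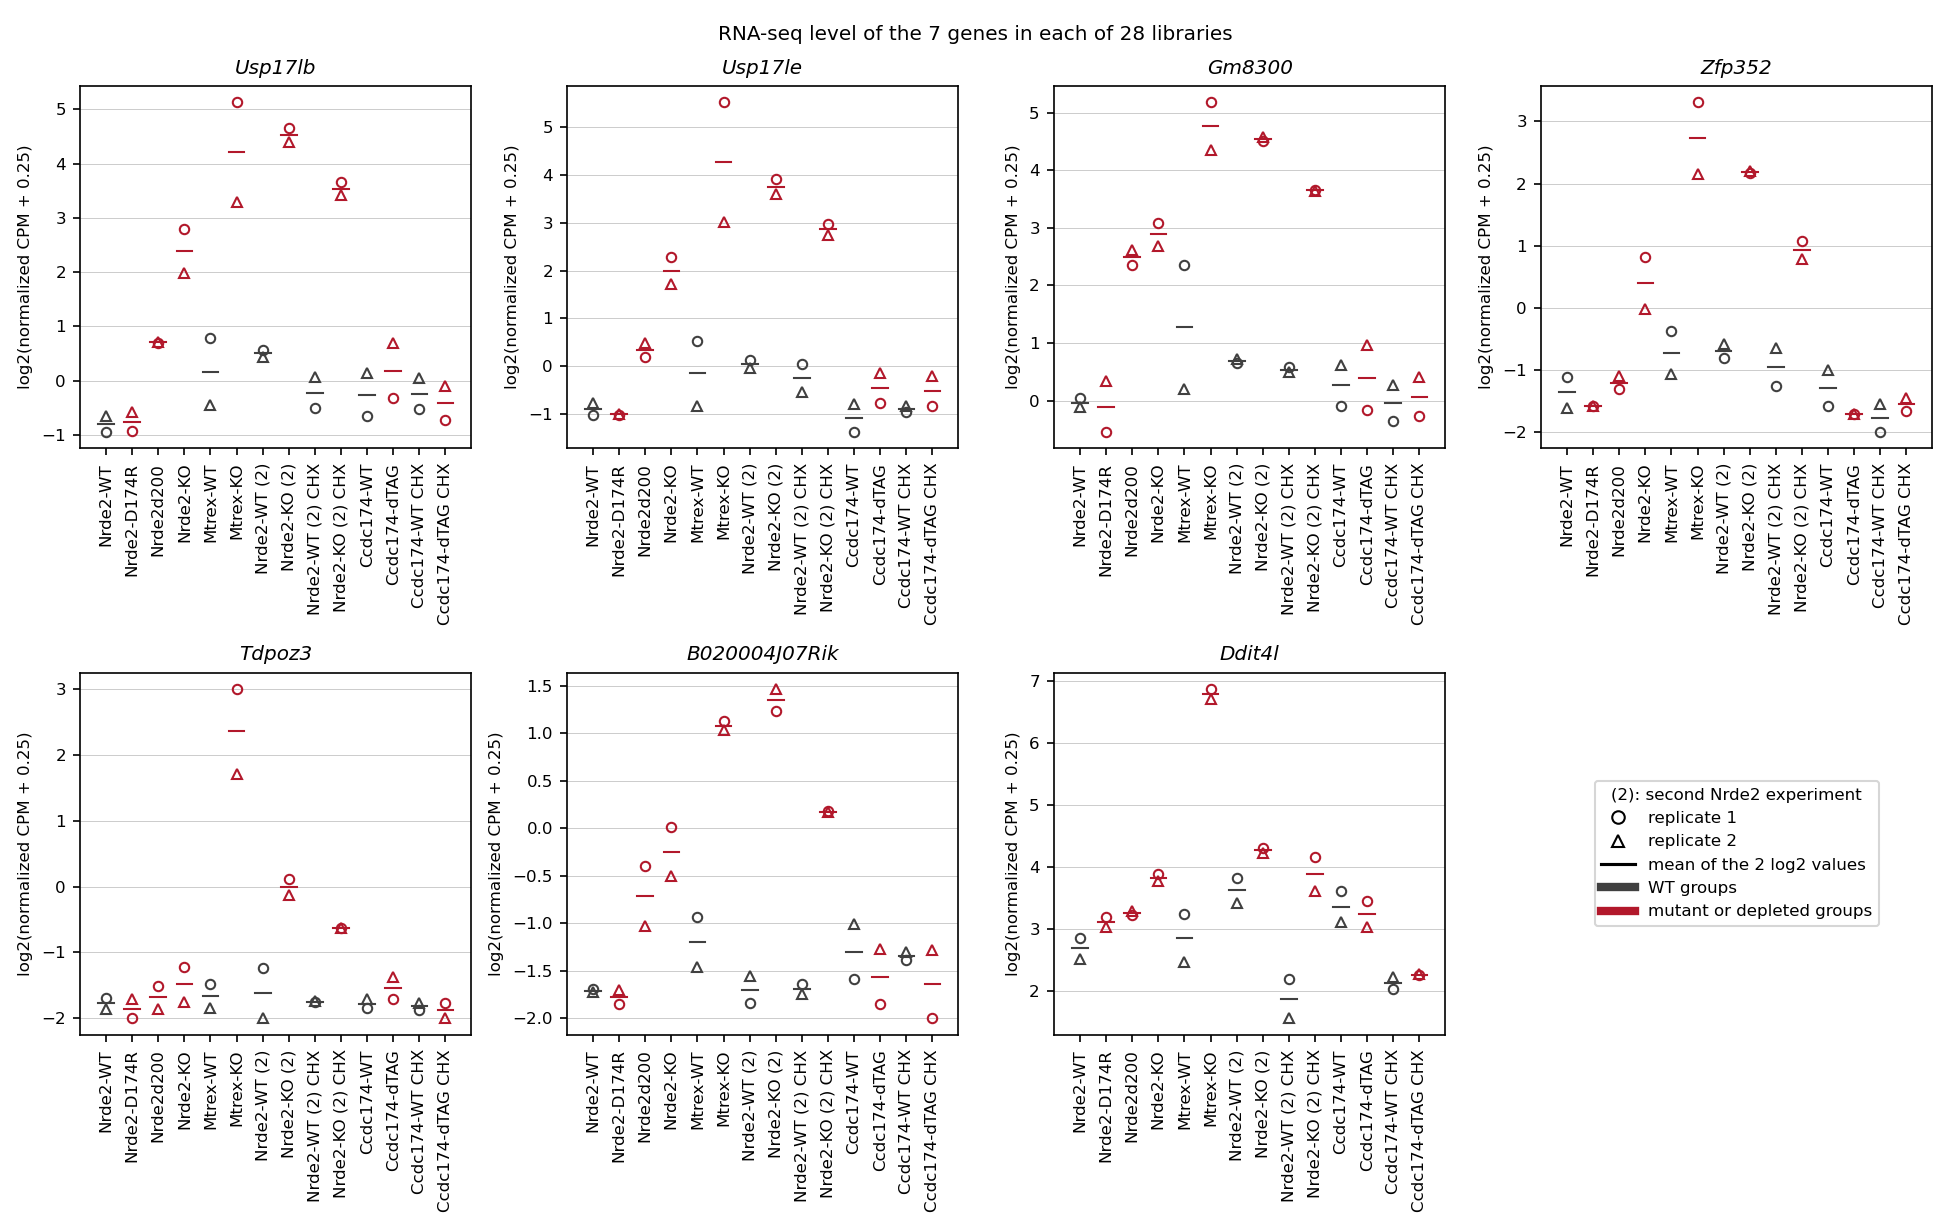
Level of each gene in each of 28 RNA-seq libraries as log2(normalized CPM + 0.25), with 1 panel per gene, a circle or triangle per library and a line at the mean of the 2 log2 values. Usp17lb, Usp17le, Gm8300 and Zfp352 rise in both Nrde2-KO experiments and in Mtrex-KO, Tdpoz3 stands out in Mtrex-KO, and Ddit4l falls in WT libraries under CHX.

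The first comparison asked which of these transcripts accumulate when Nrde2 is deleted. A gene was called when its adjusted p was under 0.01 and its log2 fold change over 1 in size, in a limma fit of log2(normalized CPM + 0.25) over 20 libraries without CHX and 14889 genes. This scale understates the change of low genes. In Nrde2-KO 6 of the 7 genes were called up, where 3.02% of all genes tested were called up, and the median log2 fold change was 1.77 over the 7 and 0.0047 over all genes. Tdpoz3 and B020004J07Rik entered this fit only through groups in which they were high. The mean of Tdpoz3 without Mtrex-KO was under the minimum of 0.5 CPM. That of B020004J07Rik was under it without Mtrex-KO and also without the second Nrde2-KO group.

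Both deubiquitinase genes rose in Nrde2-KO. Usp17lb was at 0.271 and 0.388 normalized CPM in WT, from 9 and 15 reads, and at 6.73 and 3.70 in Nrde2-KO, from 266 and 155 reads. Both Nrde2-KO libraries were above both WT libraries, and the log2 fold change was 3.19 ± 0.49 (SE, n = 2 libraries a group) with a limma adjusted p of 0.000118. Each SE uses the spread of the gene within groups over all libraries of its fit, not only those compared. Usp17le was at 0.241 and 0.336 in WT, from 8 and 13 reads, and at 4.63 and 3.03 in Nrde2-KO, from 183 and 127 reads. Its log2 fold change was 2.90 ± 0.55, with a limma adjusted p of 0.000727. Windows that the 2 genes share add to neither count, since only uniquely mapping reads were counted. Both genes were read in the same libraries, so they are not independent evidence. How often a read of either gene was placed on the other was not tested.

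Gm8300 was at 0.784 and 0.672 normalized CPM in WT, from 26 reads in each library, and at 8.27 and 6.21 in Nrde2-KO, from 327 and 260 reads. It rose by 2.93 ± 0.50 on the log2 scale, with a limma adjusted p of 0.000331. Zfp352 rested on fewer reads, 7 and 3 in WT and 60 and 31 in Nrde2-KO, or 0.211 and 0.0775 against 1.52 and 0.740 normalized CPM. The groups did not overlap, and it rose by 1.77 ± 0.36, with a limma adjusted p of 0.00126. The ratio of its summed reads was 8.03 at equal depth, with an exact 95% interval of 4.17 to 17.3 that covers counting error only.

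B020004J07Rik and Tdpoz3 were close to the limit of detection in WT. B020004J07Rik had 2 reads in each WT library, 0.0603 and 0.0517 normalized CPM, and 30 and 19 reads in Nrde2-KO, 0.759 and 0.454 normalized CPM. It rose by 1.46 ± 0.30, with a limma adjusted p of 0.00150, and the read ratio of 10.8 had an interval of 3.97 to 41.3. Tdpoz3 had 2 and 1 reads in WT and 7 and 2 in Nrde2-KO, so the groups overlapped in reads. Its log2 fold change was 0.29 ± 0.36, with a limma adjusted p of 0.589, and the read ratio of 2.65 had an interval of 0.661 to 15.2, which holds both no change and a large one.

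Ddit4l had the smallest change of the 6 called genes but the most reads. It was at 7.02 and 5.48 normalized CPM in WT, from 233 and 212 reads, and at 14.5 and 13.4 in Nrde2-KO, from 572 and 560 reads. The log2 fold change was 1.13 ± 0.22 with a limma adjusted p of 0.000983, just above the fold limit.

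Leaving out 1 library, and so having 1 left in a group, ended several of these calls. Without WT replicate 1 the call of B020004J07Rik was lost, at a log2 fold change of 1.48 against 1.46 with all libraries. Without WT replicate 2 the count fell to 3, since Zfp352, B020004J07Rik and Ddit4l were then at limma adjusted p of 0.0223, 0.0142 and 0.0196. Without Nrde2-KO replicate 1 it fell to 2, Usp17lb and Gm8300, while the other 4 had log2 fold changes between 1.08 and 2.61. With 1 added before the logarithm it was 4, since Zfp352 and B020004J07Rik were then at 0.87 and 0.60, under the fold limit.

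**Figure D3:**
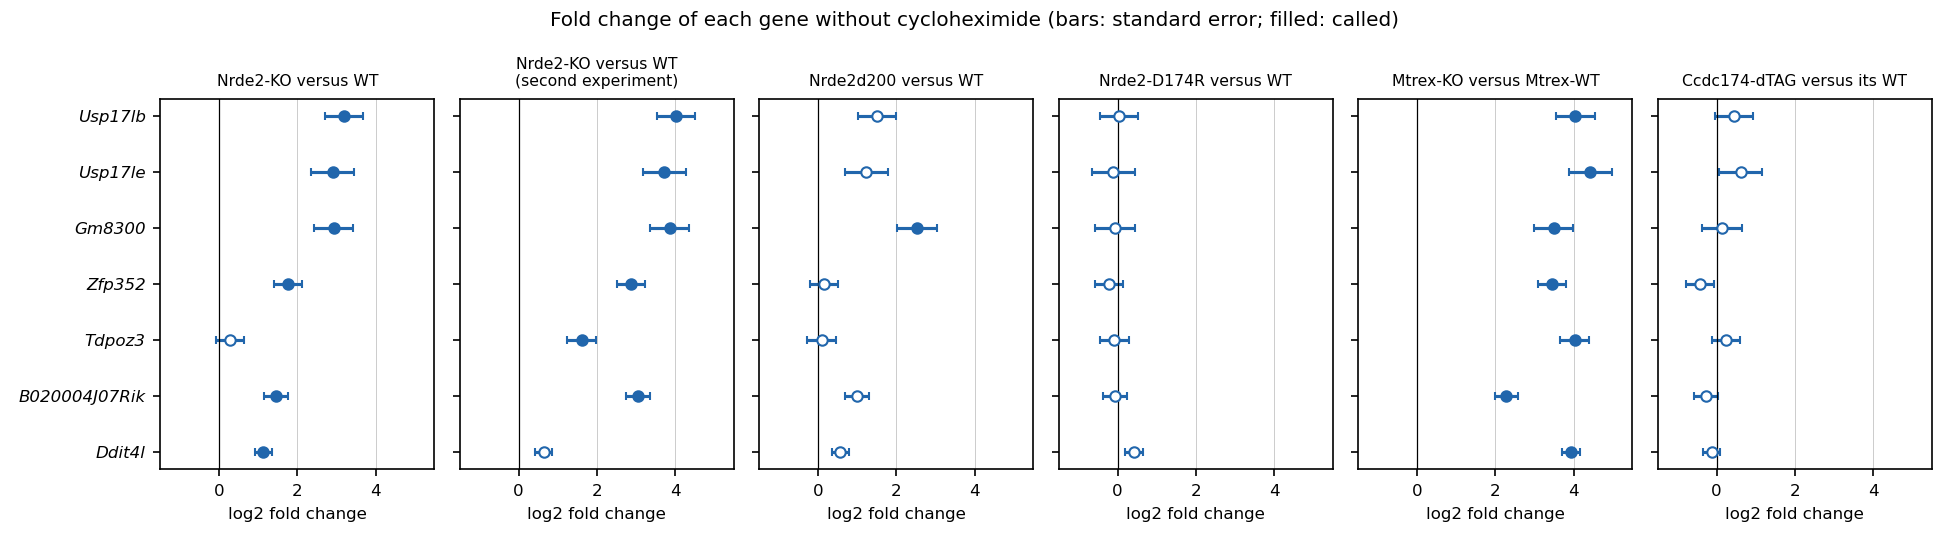
Log2 fold change of each gene, with its standard error, in 6 comparisons without CHX, with 1 panel per comparison. Filled points mark called genes, which are 6 of 7 in both Nrde2-KO experiments, 1 in Nrde2d200, none in Nrde2-D174R and Ccdc174-dTAG, and 7 in Mtrex-KO.

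The second Nrde2-KO experiment had separate WT libraries and higher levels of most of these genes in both groups. There 6 of 7 were called up, against 2.40% of all genes tested, with a median log2 fold change of 3.05 over the 7 and of 0.0056 over all genes. Usp17lb was at 1.23 and 1.11 normalized CPM in WT, from 42 and 37 reads, and at 24.9 and 20.7 in Nrde2-KO, from 802 and 749 reads. Usp17le was at 0.846 and 0.719 in WT and at 14.8 and 11.9 in Nrde2-KO. Gm8300 was at 1.31 and 1.41 in WT and at 22.5 and 23.5 in Nrde2-KO. These 3 genes rose by 4.02 ± 0.49, 3.72 ± 0.55 and 3.86 ± 0.50, with limma adjusted p between 1.05e-05 and 6.98e-05.

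Zfp352 rose from 0.321 and 0.419 to 4.25 and 4.37 normalized CPM, by 2.88 ± 0.36, with a limma adjusted p of 1.25e-05. B020004J07Rik had 1 and 3 reads in WT and 68 and 91 in Nrde2-KO, for a log2 fold change of 3.05 ± 0.30 with a limma adjusted p of 1.07e-06. It reached the minimum of the fit only with these Nrde2-KO libraries and so adds nothing to the count of 6. With no minimum level the limma adjusted p was 2.63e-05. Tdpoz3 had 6 and 0 reads in WT and 27 and 24 in Nrde2-KO, and here it was called, at 1.61 ± 0.36 and a limma adjusted p of 0.00280. That call was lost when WT replicate 2, the library without a read, was left out, at a limma adjusted p of 0.0548, when either Nrde2-KO replicate was left out, and with 1 added before the logarithm, at 0.69 and a limma adjusted p of 0.0281. Without either Nrde2-KO replicate the count was 4, because B020004J07Rik then also fell below the level needed for a test.

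Ddit4l was the exception in the second experiment. Its level was 13.9 and 10.5 normalized CPM in WT, from 477 and 350 reads, and 19.6 and 18.4 in Nrde2-KO, from 631 and 666 reads. Both Nrde2-KO libraries were again above both WT libraries, but the log2 fold change of 0.64 ± 0.22, with a limma adjusted p of 0.0357, was not called. Both WT libraries of the second experiment were above both WT libraries of the first. The difference between the 2 experiments was not tested.

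In Nrde2d200 only Gm8300 was called, as 1 of 7 against 1.58% of all genes tested called up. Gm8300 was at 4.87 and 5.90 normalized CPM, from 191 and 221 reads, above both WT libraries and below both Nrde2-KO libraries, and it rose by 2.52 ± 0.50 over WT, with a limma adjusted p of 0.00261. Leaving out any 1 of the 4 libraries ended this call, at limma adjusted p between 0.0147 and 0.0398 with a log2 fold change of 2.39 to 2.66. Usp17lb was at 1.38 and 1.39 normalized CPM, from 54 and 52 reads, between the WT and the Nrde2-KO libraries, and its log2 fold change of 1.501 ± 0.49 had a limma adjusted p of 0.0443. Usp17le was at 0.892 and 1.15, with 1.24 ± 0.55 and a limma adjusted p of 0.135. In a fit of only the WT and Nrde2d200 libraries, Usp17lb and Usp17le were called too, with the same fold changes and limma adjusted p of 0.000405 and 0.00279.

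B020004J07Rik had 20 and 9 reads in Nrde2d200, and its log2 fold change of 1.00 ± 0.30 had a limma adjusted p of 0.0317. Zfp352, with 6 and 8 reads, and Tdpoz3, with 4 and 1 reads, overlapped with WT, at 0.15 ± 0.36 and 0.09 ± 0.36. Ddit4l was at 9.12 and 9.56 normalized CPM, above both WT libraries and below both Nrde2-KO libraries, at 0.57 ± 0.22 and a limma adjusted p of 0.0893.

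Directly against Nrde2-KO, Zfp352 was lower in Nrde2d200 by −1.61 ± 0.36 on the log2 scale, with a limma adjusted p of 0.00634, as 1 of 7 where 0.893% of genes tested were called down. Without Nrde2-KO replicate 1 the value was −1.20 with a limma adjusted p of 0.113, and without either Nrde2d200 replicate the adjusted p was 0.0532 or 0.0372. Usp17lb and Usp17le had differences of −1.69 ± 0.49 and −1.66 ± 0.55, with limma adjusted p of 0.0303 and 0.0526. In a fit of only these 4 libraries the same differences were called, with limma adjusted p of 7.64e-07 and 1.27e-06. Gm8300 had a difference of −0.40 ± 0.50, with a limma adjusted p of 0.652. With 1 added before the logarithm the value of Zfp352 was −0.82 with a limma adjusted p of 0.0283, and with no minimum level the adjusted p was 0.0350.

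In Nrde2-D174R none of the 7 was called by limma, edgeR or DESeq2, and none had an unadjusted p under 0.05 with any of the 3 tools, where limma called 0.215% of all genes either way. Zfp352 had 3 reads in each library, Usp17lb 10 and 15, Usp17le 9 in each, and Gm8300 16 and 36. The log2 differences from WT lay between −0.22 and 0.04 for 6 genes, and Ddit4l, at 8.88 and 7.91 normalized CPM, had 0.42 ± 0.22 with a limma adjusted p of 0.338.

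In Mtrex-KO 7 genes were called up, of which Tdpoz3 and B020004J07Rik reached the minimum of the fit only with the Mtrex-KO libraries. Here 15.8% of all genes tested were called up and 10.9% down, and the median log2 fold change was 3.93 for the 7 and −0.0017 for all genes. With CPM as deposited instead, the median of all genes moved to −0.38, with 1604 genes called up and 3094 down, and the 7 genes were all still called, with a median of 3.54. The share of reads in genes was 72.1% in Mtrex-KO replicate 1, the lowest of the RNA-seq libraries, and 82.7% in replicate 2.

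Ddit4l reached its highest level of the study in Mtrex-KO. It was at 9.25 and 5.27 normalized CPM in Mtrex-WT, from 340 and 186 reads, and at 116.6 and 104.3 in Mtrex-KO, from 3363 and 3024 reads. The log2 fold change was 3.93 ± 0.22, with a limma adjusted p of 1.38e-10. Tdpoz3, with at most 27 reads in any other library, had 4 and 1 reads in Mtrex-WT and 224 and 88 in Mtrex-KO, or 7.77 and 3.04 normalized CPM. Its log2 fold change was 4.02 ± 0.36, with a limma adjusted p of 3.68e-08, and its read ratio of 77.8 had an interval of 33.0 to 241. As Tdpoz3 entered the fit only through these 2 libraries, it had to differ here and adds nothing to the count of 7. In the fit with no minimum level, which all genes enter, the limma adjusted p of the same change was 9.14e-07.

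The other genes were more variable between the Mtrex-KO replicates. Usp17le was at 45.7 and 7.90 normalized CPM in Mtrex-KO, from 1318 and 229 reads, against 1.20 and 0.312 in Mtrex-WT. Usp17lb was at 34.7 and 9.52, against 1.47 and 0.482. Gm8300 was at 36.0 and 20.2, against 4.84 and 0.906. Their log2 fold changes were 4.42 ± 0.55, 4.04 ± 0.49 and 3.49 ± 0.50, with limma adjusted p between 1.27e-06 and 9.64e-06. These SE and p-values rest on the spread shared by all libraries of the fit. They do not measure the spread between the Mtrex-KO replicates.

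Zfp352 was at 9.64 and 4.18 in Mtrex-KO, from 278 and 121 reads, against 0.517 and 0.227 in Mtrex-WT, and rose by 3.45 ± 0.36, with a limma adjusted p of 1.91e-07. B020004J07Rik was at 1.94 and 1.79, from 56 and 52 reads, against 0.272 and 0.113, and rose by 2.28 ± 0.30, with a limma adjusted p of 3.65e-06. Its mean without the Mtrex-KO libraries was 0.4305 CPM, under the minimum, so it adds nothing to the count of called genes. With no minimum level its limma adjusted p was 3.36e-05.

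Replicate 1 was the higher library of both Mtrex groups for every one of the 7 genes, by 1.75 to 5.34 times in Mtrex-WT and by 1.08 to 5.79 times in Mtrex-KO. The 6 Zscan4 genes summed to 298.7 normalized CPM in Mtrex-KO replicate 1 and 87.0 in replicate 2, and to 12.4 and 4.31 in the Mtrex-WT replicates. Within replicate number 1, Mtrex-KO was 7.14 to 71.4 times Mtrex-WT, and within number 2 it was 15.8 to 107 times. The rise was thus present within both numbers. Without Mtrex-KO replicate 1 or replicate 2, Tdpoz3 and B020004J07Rik were below the level needed for a test and the 5 other genes stayed called.

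**Figure D4:**
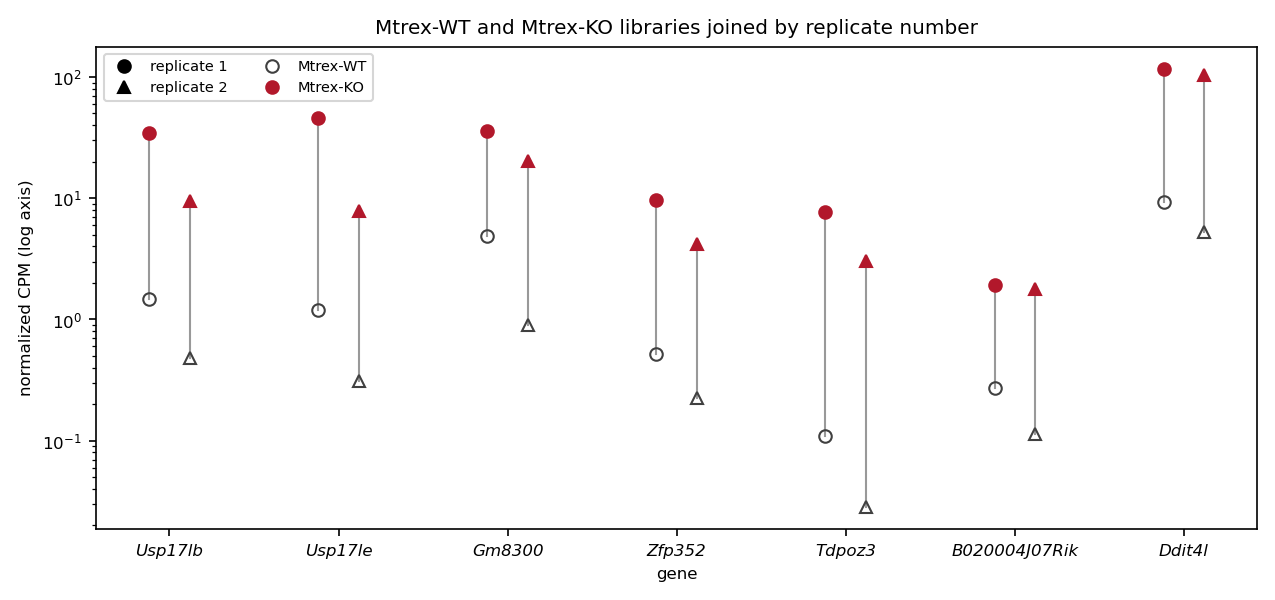
Normalized CPM of each gene on a log axis in the Mtrex-WT (open) and Mtrex-KO (filled) libraries, joined by replicate number, with 1 pair of lines per gene. Replicate 1 is higher than replicate 2 in both groups for all 7 genes, and every Mtrex-KO library is above every Mtrex-WT library.

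The Mtrex-KO effect and that of the first Nrde2-KO experiment were then set against each other in the same fit. Ddit4l rose more in Mtrex-KO than in Nrde2-KO, by 2.80 ± 0.31 on the log2 scale, with a limma adjusted p of 2.19e-06, and so did Tdpoz3, by 3.74 ± 0.52, with a limma adjusted p of 1.86e-05. These were 2 of 7, where 11.5% of genes tested were called in that direction. With CPM as deposited the median of all genes in this contrast moved to −0.42, with 1049 genes called higher and 2578 lower in place of 1705 and 1075, and the same count of 2 of the 7 was called. In edgeR's quasi-likelihood test on the recovered reads Tdpoz3 was at 4.85 with an adjusted p of 0.0608 and was not called. Zfp352 was at 1.68 ± 0.51, with a limma adjusted p of 0.0118, or 0.00951 and called with the replicate number as a block. Tdpoz3 entered this fit only through the Mtrex-KO libraries. Usp17lb, Usp17le, Gm8300 and B020004J07Rik had differences between 0.56 and 1.53 that were not called. The second Nrde2-KO experiment was not part of this contrast, and its fold changes were higher than in the first except for Ddit4l. In Mtrex-KO and in that experiment they were 4.04 and 4.02 for Usp17lb, 4.42 and 3.72 for Usp17le, and 3.49 and 3.86 for Gm8300. They were 3.45 and 2.88 for Zfp352, 2.28 and 3.05 for B020004J07Rik, 4.02 and 1.61 for Tdpoz3, and 3.93 and 0.64 for Ddit4l. The knockouts were induced for 4 days in one line and 3 days in the other, and line, time and gene cannot be told apart in this contrast.

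In Ccdc174-dTAG none of the 7 was called by limma, edgeR or DESeq2 or had an unadjusted p under 0.05, where limma called 1.38% of all genes either way. Usp17lb was at 0.554 and 1.36 normalized CPM against 0.383 and 0.852 in its WT, Gm8300 at 0.637 and 1.71 against 0.684 and 1.29, and Ddit4l at 10.6 and 7.91 against 11.9 and 8.38. In each of these genes the libraries of both groups overlapped. The log2 differences of the 7 ran from −0.41 for Zfp352 to 0.61 for Usp17le, with standard errors between 0.22 and 0.55. Of the 5 genes tested by limma under CHX none was called or had an unadjusted p under 0.05, with edgeR and DESeq2 also at 0, against 0.911% of all genes called.

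Under CHX the libraries labelled Nrde2-KO again had more of these transcripts than WT. The 5 genes tested were called up, Zfp352 among them having entered the fit only through the Nrde2-KO libraries, where 2.82% of all genes tested were called up. Usp17lb was at 0.455 and 0.796 normalized CPM in WT and at 12.3 and 10.5 in Nrde2-KO, Usp17le at 0.790 and 0.434 against 7.67 and 6.43, and Gm8300 at 1.24 and 1.16 against 12.4 and 12.3. Their log2 fold changes were 3.76 ± 0.28, 3.11 ± 0.26 and 3.12 ± 0.25, with limma adjusted p between 4.66e-06 and 1.12e-05. Zfp352 had a log2 fold change of 1.88 ± 0.27, and with no minimum level its limma adjusted p was 0.00507. Tdpoz3, with 2 reads in each WT library and 16 in each Nrde2-KO library, and B020004J07Rik, with 3 and 2 against 36 and 35, were too low for that fit. Both were called when no minimum was set, at 1.12 ± 0.11 and 1.87 ± 0.24, with limma adjusted p of 0.00139 and 0.00301.

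CHX lowered Ddit4l in WT cells, the only gene of the 5 tested that was called there, where 2.91% of all genes were called down. In the WT of the second Nrde2 experiment it was at 13.9 and 10.5 normalized CPM without CHX and at 4.31 and 2.703 with it, a log2 change of −1.75 ± 0.23 with a limma adjusted p of 1.62e-05. These groups did not overlap. In Nrde2-KO it was at 19.6 and 18.4 without and at 17.7 and 11.99 with CHX, a change of −0.38 ± 0.23, with a limma adjusted p of 0.176. As a test of the difference itself, the CHX effect in Nrde2-KO less that in WT was 1.37 ± 0.33 with a limma adjusted p of 0.0482, which was not called. In that contrast limma called 0.172% of all genes and 0 of the 5, of which 2 had an unadjusted p under 0.05, and edgeR also called 0. DESeq2 on the recovered reads gave 1.42 for Ddit4l with an adjusted p of 0.00127 and called it. In the WT of the Ccdc174 line Ddit4l was again the only 1 of 5 called, at −1.23 ± 0.23 and a limma adjusted p of 0.000359, where 2.61% of all genes were called down. In Ccdc174-dTAG its change of −0.97 ± 0.23, with a limma adjusted p of 0.00222, was within the fold limit, so that limma and edgeR called 0 of 5 and DESeq2 called Ddit4l, where limma called 2.68% of all genes down. Without replicate 1 of the untreated Ccdc174 WT its value was −0.98 and no longer called.

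Changes of the other genes under CHX were not tested against that of Ddit4l. In the 2 WT groups Usp17lb, Usp17le, Gm8300 and Zfp352 had changes between −0.72 and 0.19, none of them called. In Nrde2-KO Zfp352 went from 4.25 and 4.37 to 1.84 and 1.47 normalized CPM, a change of −1.26 ± 0.26 with a limma adjusted p of 0.000652, as the only 1 of 5 genes tested that was called, where 3.17% of all genes were called down. That call was lost without replicate 2 of the CHX-treated Nrde2-KO, at a limma adjusted p of 0.0106. Usp17lb, Usp17le and Gm8300 changed by −0.98, −0.90 and −0.89 there, with limma adjusted p between 0.0138 and 0.0312, and were not called. Zfp352 entered this fit only through the Nrde2-KO libraries without CHX, so a call could only be down. With no minimum level its limma adjusted p was 0.00433. With CPM as deposited the median of all genes shifted to between 0.20 and 0.24 in the comparisons of CHX with no CHX, and in WT 2264 genes were called up and 273 down in place of 1690 and 441. The counts of called genes among the 5 were the same with either scaling.

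**Figure D5:**
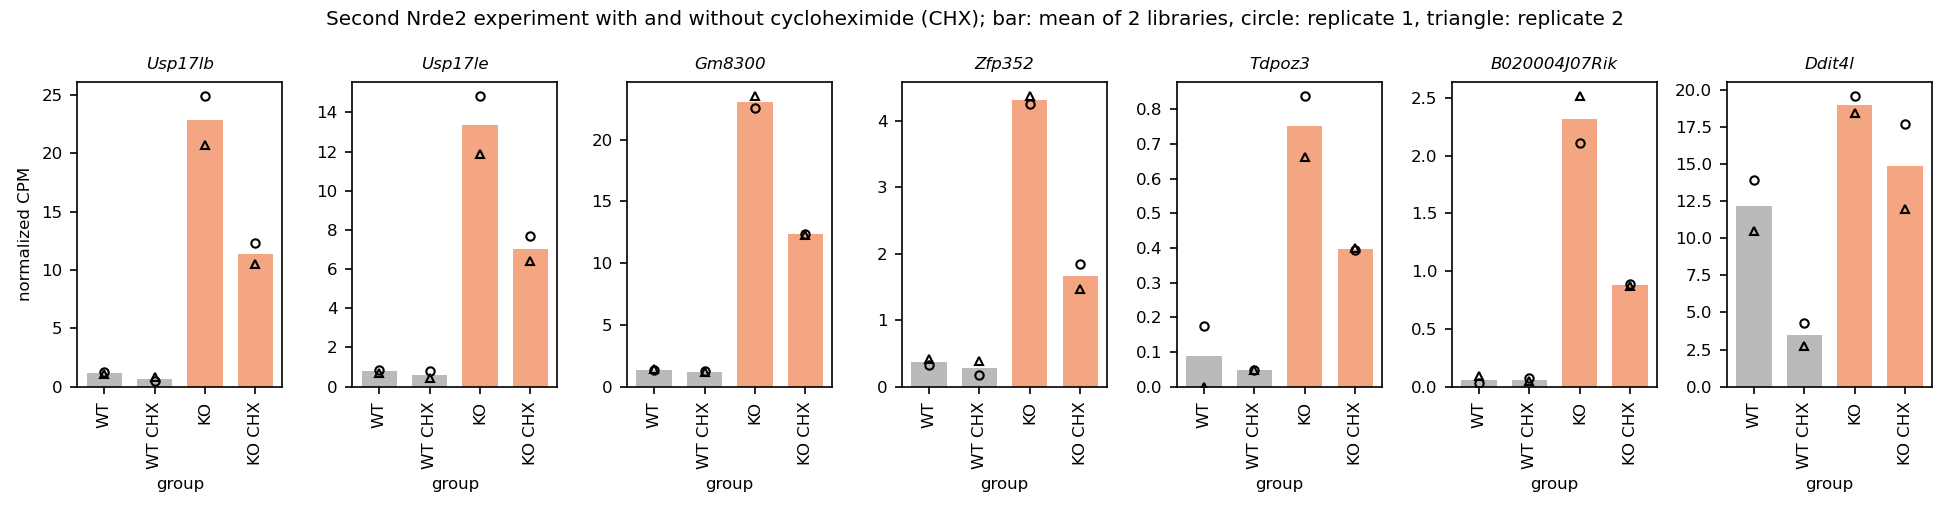
Normalized CPM of each gene in the second Nrde2 experiment, with bars at the mean of 2 libraries, points for the libraries, and groups WT and Nrde2-KO without and with CHX. Ddit4l falls from 13.9 and 10.5 to 4.31 and 2.703 in WT under CHX and is at 17.7 and 11.99 in Nrde2-KO with CHX, against 19.6 and 18.4 without. Limma did not call this difference of CHX effects between genotypes. Every gene, Ddit4l included, is higher in Nrde2-KO than in WT at both conditions.

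Ribosome footprints of 6 of the 7 genes were too few to compare. Over the 4 Ribo-seq libraries Usp17lb had 8 reads, Usp17le 5, Gm8300 2, Zfp352 1, and Tdpoz3 and B020004J07Rik 0. A count of 0 at this depth does not show that an RNA was untranslated. Usp17le had 0 reads in both WT libraries and 2 and 3 in Nrde2-KO, and Usp17lb had 0 and 3 in WT and 3 and 2 in Nrde2-KO. Footprints are short, and with windows of 35 bases the share found once fell to 48.4% for Usp17le, 43.8% for Gm8300 and 26.3% for Tdpoz3.

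Ddit4l was the only one of the 7 tested in Ribo-seq, with 17 and 22 footprints in WT and 28 and 38 in Nrde2-KO, or 2.21 and 2.93 against 5.02 and 4.92 normalized CPM. Both Nrde2-KO libraries were above both WT libraries. The log2 fold change of 0.90 ± 0.27, with a limma adjusted p of 0.0141, was not called by limma, nor was it by edgeR or DESeq2, where limma called 6.42% of all genes either way. Its unadjusted p was under 0.05 with limma and edgeR. The read ratio was 1.94 with an interval of 1.28 to 2.95. With CPM as deposited the value was 1.04, with a limma adjusted p of 0.00260, and it was called, while the median of all genes moved to 0.15 and 834 genes were called up and 271 down in place of 502 and 388. Its Ribo-seq change less its RNA-seq change was −0.23 ± 0.28, with a limma adjusted p of 0.631. For Usp17lb, Usp17le and Gm8300 that difference was −2.53 ± 0.65, −1.58 ± 0.48 and −2.41 ± 0.53, with limma adjusted p of 0.0218, 0.0439 and 0.0108. These 3 genes entered this fit only through the RNA-seq libraries of Nrde2-KO, where they were high. That favours a value below 0, so no conclusion is drawn from the sign. None of the 4 was called by limma, edgeR or DESeq2, against 1.18% of all genes by limma, although 3 had an unadjusted p under 0.05 with limma and 0 with edgeR. The direction was not stable where both WT Ribo-seq libraries had 0 reads, since edgeR gave 3.24 for Usp17le and 2.31 for Gm8300.

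As a description over the 28 RNA-seq libraries, which share groups and differ in depth, Pearson's r of the log2 levels was 0.92 to 0.98 among Usp17lb, Usp17le, Gm8300 and Zfp352, and 0.76 to 0.81 between Ddit4l and these 4. Tdpoz3 and B020004J07Rik were under the minimum mean of 0.5 CPM over the 28 libraries and were left out. The genes most like Gm8300 were Gm2016, at an r of 0.99, and Zscan4d and Gm5662. Those most like Usp17lb were AC127331.1 and Usp17lc at 0.98 and Gm21037 at 0.97. Those most like Usp17le were Cntnap3, Usp17lc and Usp17ld, each at 0.98. AC127331.1, Gm21037 and Cntnap3 were not on the lists of 2C genes. The genes most like Zfp352 were Gm4858 at 0.97, Gm38258 and Usp17lc.

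The genes most like Ddit4l were Mdm2, at an r of 0.98, Btg2 and Rap2b, and none of its 10 nearest genes was on the lists of 2C genes. Mdm2 and Btg2 are well known targets of the transcription factor p53. Mdm2 had log2 changes of 0.97 in Nrde2-KO, 2.76 in Mtrex-KO and −1.02 under CHX in WT, and of −0.10 under CHX in Nrde2-KO. Of these Mdm2 values, those in Mtrex-KO and under CHX in WT were called. Btg2 had 0.82, 2.69, −1.27 and 0.25 in the same 4 comparisons, Rap2b 0.51, 2.61, −1.001 and −0.65, and Ddit4l 1.13, 3.93, −1.75 and −0.38. Gm4858 and Gm38258, the genes nearest to Zfp352, were not on the lists of 2C genes either, so absence from these lists decides little. Whether Ddit4l belongs with the 2C transcripts was not tested.

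Promoters from the RefSeq table (GRCm38.p6), as the 250 bases before the annotated start, were found for Usp17lb, Zfp352, Ddit4l and B020004J07Rik, the last under the name Pramel17. Those of Zfp352 and B020004J07Rik are shown because they share a 9-base word, and that of Ddit4l because its pattern of levels stood apart. Each is printed 5′ to 3′ on the strand of the gene. Capitals mark CCTTTAATC on either strand and TATAAG in the first 2, both words chosen after reading these sequences, and in Ddit4l a match to the p53 half-site.
Zfp352, chr4:90218570-90218819, plus strand: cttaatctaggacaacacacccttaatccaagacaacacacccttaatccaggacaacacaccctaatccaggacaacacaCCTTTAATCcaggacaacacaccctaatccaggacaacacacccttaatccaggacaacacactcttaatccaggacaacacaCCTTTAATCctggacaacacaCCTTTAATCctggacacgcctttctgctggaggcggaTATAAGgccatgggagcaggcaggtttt
B020004J07Rik, chr4:101844023-101844272, minus strand: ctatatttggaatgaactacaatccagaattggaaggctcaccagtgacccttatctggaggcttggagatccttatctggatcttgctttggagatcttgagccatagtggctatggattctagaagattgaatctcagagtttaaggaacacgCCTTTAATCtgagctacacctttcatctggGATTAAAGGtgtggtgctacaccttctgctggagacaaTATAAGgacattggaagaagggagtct
Ddit4l, chr3:137623422-137623671, plus strand: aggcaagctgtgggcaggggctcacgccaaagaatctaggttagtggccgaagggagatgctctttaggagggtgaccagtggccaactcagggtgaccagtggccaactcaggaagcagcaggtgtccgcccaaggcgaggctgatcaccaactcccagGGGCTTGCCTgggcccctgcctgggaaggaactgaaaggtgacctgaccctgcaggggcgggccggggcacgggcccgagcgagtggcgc
CCTTTAATC occurred 3 times in the Zfp352 window, 169, 86 and 65 bases before the start, and 2 times in that of B020004J07Rik, 95 and 65 bases before it. Of 32851 promoters of the same length 0.466% held it, and 6.65% held TATAAG, which began 28 and 27 bases before the 2 starts. The p53 half-site was matched once in the Ddit4l window and once in that of Usp17lb, beginning 90 and 89 bases before the start, and in 7.13% of all promoters. The RefSeq start of Ddit4l lies 2060 bases inside the GENCODE gene used for its counts, so these positions hold for the RefSeq start. TATAAA was found in the Usp17lb window, 31 bases before the start, and in 12.4% of all promoters. These are matches of letters and no test of binding.

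Many 2C genes lie next to a MERVL element, an endogenous retrovirus whose promoter repeat MT2_Mm is active in the 2-cell embryo. In the genome, 703 sites matched the pair of MT2_Mm primers of the study with up to 2 mismatches a primer. From the start of the 7 genes to the nearest site was 102625 bases for Zfp352, the closest, and 3888805 for Gm8300, the farthest. None was within 50000 bases, where 2.74% of 21899 protein-coding genes were. Copies that the primers do not match were not searched.

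Other genes of the 2-cell programme were read from lists chosen with earlier results of these data known. In Nrde2-KO the other Usp17l copies, Usp17la, Usp17lc and Usp17ld, were all called up, as were 4 of 6 Zscan4 genes and 11 of 15 other 2C genes tested of 31, beside 3.02% of all genes. Among these, Chit1 rose by 2.13 ± 0.32 and Gm8994 by 2.57 ± 0.48, while Nelfa, a 2C gene that WT mESCs also express, had 0.36 ± 0.16 and was not called. In Nrde2d200 the counts were 0 of 3, 1 of 6 and 3 of 15, beside 1.58% of all genes, and in Nrde2-D174R and Ccdc174-dTAG limma called none. In Mtrex-KO they were 3 of 3, 6 of 6 and 15 of 15, beside 15.8%, and in the second Nrde2-KO experiment 3 of 3, 5 of 6 and 14 of 15, beside 2.40%. The 4 other Tdpoz copies were below the level needed for a test in every fit, but their summed level was 7.98 and 2.66 normalized CPM in Mtrex-KO and at most 0.994 elsewhere.

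Markers of other cell types moved beside these genes. The sum of 6 primitive endoderm markers was 13.5 and 13.6 normalized CPM in WT, 24.3 and 21.7 in Nrde2-KO, and 19.98 and 19.2 in Mtrex-KO against 12.1 and 11.3 in Mtrex-WT, and 2 of 5 markers tested were called up in each of these comparisons, beside 3.02% and 15.8% of all genes. It was 19.5 and 20.99 in Nrde2d200, with 1 of 5 called up beside 1.58% of all genes, and 19.9 and 16.5 in the second Nrde2-KO group against 11.3 and 9.61 in its WT, with 2 of 5 called up beside 2.40%. The 6 trophectoderm markers summed to 77.7 and 62.9 in Mtrex-KO against 44.5 and 44.6 in Mtrex-WT, with 3 of 5 called up, and to 34.2 and 31.6 in Nrde2-KO against 39.4 and 34.9 in WT, with 2 of 5 called up. Pluripotency markers summed to 3901 and 4128 in Nrde2-KO against 4833 and 5106 in WT, with none of 7 called, and to 4204 and 4850 in Mtrex-KO against 5498 and 5557 in Mtrex-WT, with 1 of 7 called down. The part of such cells in the results above was not tested.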

How the data were processed

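RNA-seq (28 libraries) and Ribo-seq (4 libraries) tables of CPM per gene, as deposited, were used. Per the methods, the authors aligned stranded 50-nt total RNA reads with STAR (version 2.7.3a) to mm10 and counted uniquely mapping reads by strand with featureCounts on GENCODE M23, and Ribo-seq reads were trimmed and their duplicates collapsed. Reads were recovered from the deposited CPM, and every value was whole within 0.1. GENCODE M21 named 55154 of 55335 identifiers. Reads in genes were 72.1% to 92.1% of the RNA-seq totals behind CPM and 61.4% to 66.8% of those of Ribo-seq.

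Each library was scaled by its median of ratios to the geometric mean library, and log2(value + 0.25) was fitted with limma 3.58.1 (R 4.3.3, lmFit and eBayes with trend). Genes averaging under 0.5 CPM over the libraries of a fit were left out. P-values were adjusted by Benjamini-Hochberg over all genes tested. Fits held 20 libraries without CHX, 8 with CHX, 16 with both, 4 of Ribo-seq and 8 of Ribo-seq and RNA-seq. Intervals of read ratios are exact (Clopper-Pearson, 95%) and cover counting error only. All 7 genes are named, with the 3 genes most like each by Pearson's r over the 28 libraries, and the 4 listed genes of highest level. The members and lists were chosen with earlier results of these data known. Alternatives were 0.1 or 1 added, CPM as deposited, no minimum or 1 CPM, edgeR 4.0.16, DESeq2 1.42.0, a replicate block, the compared libraries alone, each library left out, and 35-base windows. The steps were tested on simulated data.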

Additional observations from a re-analysis of the deposited data

Results flagged for a closer look

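In 3 cases the difference between groups was tested directly and limma called it. The rise of Ddit4l was larger in Mtrex-KO than in the first Nrde2-KO experiment by 2.80 on the log2 scale, with 3.93 against 1.13. The log2 fold change of Tdpoz3 was larger in Mtrex-KO by 3.74, with 4.02 against 0.29, but Tdpoz3 entered that fit only through the Mtrex-KO libraries, and edgeR did not call it, at an adjusted p of 0.0608. With no minimum level the limma adjusted p of Tdpoz3 was 0.000132. Zfp352 was lower in Nrde2d200 than in Nrde2-KO, at −1.61, with 6 and 8 reads against 60 and 31. That call was lost with 1 added before the logarithm, at −0.82 and a limma adjusted p of 0.0283, with no minimum level, at 0.0350, and without Nrde2-KO replicate 1 or either Nrde2d200 replicate, at 0.113, 0.0532 and 0.0372. What lies behind these differences was not tested.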

How the results depend on the processing

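Of 236 recomputed counts of called genes among the 7, 207 were within 1.5 times the count reported, and of 1274 recomputed log2 values none that was called changed sign, while 49 that were not called did. Leaving out 1 library at a time gave 2 to 6 called genes in Nrde2-KO, 4 to 6 in the second experiment, 5 to 7 in Mtrex-KO, 4 to 5 in Nrde2-KO under CHX, 0 to 0 in Nrde2d200, 0 to 1 in Nrde2d200 against Nrde2-KO, 1 to 3 in Mtrex-KO less Nrde2-KO, 0 to 1 under CHX in Nrde2-KO, in Ccdc174 WT and in Ccdc174-dTAG, and 0 to 1 in Ribo-seq less RNA-seq. Nrde2d200 against WT gave 0 with no minimum level and 3 with only the compared libraries, Usp17lb, Usp17le and Gm8300. Nrde2d200 against Nrde2-KO gave 0 with 1 added, 0 with no minimum and 3 with only the compared libraries, Usp17lb, Usp17le and Zfp352. With 1 added, Nrde2-KO gave 4 and the second experiment 5. Mtrex-KO less Nrde2-KO gave 1 with a minimum of 1 CPM, 1 with edgeR and 1 without replicate 1 of both Mtrex groups, a setting chosen after seeing the data. CHX in Nrde2-KO gave 2 with no minimum, 0 with a minimum of 1 CPM and 2 with only the compared libraries. DESeq2 gave 1 for CHX in Ccdc174-dTAG and 1 for the difference of CHX effects, Ribo-seq gave 1 with CPM as deposited, and Ribo-seq less RNA-seq gave 3 with 1 added. Those 3, Usp17lb, Usp17le and Gm8300, entered that fit only through the RNA-seq libraries of Nrde2-KO. The cause of these changes was not tested. With the replicate number as a block, 1 call was gained, Zfp352 in Mtrex-KO less Nrde2-KO at 1.68 and a limma adjusted p of 0.00951, for 3 genes in place of 2, and no other count changed. Same-numbered libraries correlated in their deviations at −0.03 to 0.402, over 0.1 in 11 of 13 comparisons, but with 2 pairs and no shared source in the labels the numbers were not taken to pair the samples. At 35 bases the windows found once were 70.8% for Usp17lb, 48.4% for Usp17le, 43.8% for Gm8300, 78.5% for Zfp352, 26.3% for Tdpoz3, 83.9% for B020004J07Rik and 98.2% for Ddit4l. Depth limits Tdpoz3 and B020004J07Rik in all WT groups and 6 of the 7 genes in Ribo-seq.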
